A study of Homo sapiens with 2 samples.

Results

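The human genome holds many genes named ZNF and a number, which encode proteins with C2H2 zinc fingers, short modules that grip zinc and read DNA. A large share of them stands in tandem clusters on chromosome 19. RNAseq of T-47D cells under cisplatin, control or FZR1 ko, was used to describe the chromosome 19 zinc finger genes, gene by gene and by place along the chromosome. The members were the protein-coding rows of the expression table whose Entrez gene ID maps to a current NCBI symbol of ZNF plus a number on chromosome 19, without ZNF473. This gave 243 members among 24663 gene rows. The rule uses gene names and places, not expression values.

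Both libraries are labelled T-47D, an established luminal breast cancer cell line. Cisplatin is a platinum drug that crosslinks DNA, and both libraries came from cells given 2 µg/mL of it for a time not given in the sources used here. The control library is labelled WT. The FZR1 ko library came from a line made with CRISPR/Cas9 and single cell cloning, so it stands for 1 clone. FZR1 is the activator of the anaphase promoting complex, a ubiquitin ligase, in late mitosis and G1. There was 1 library per condition. No test was made and no difference below has a replicate check, and loss of FZR1 cannot be told apart from any other difference between the control cells and this clone.

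The values are FPKM, fragments divided by transcript length and by the mapped fragments of the library, so levels of genes of different length can be compared. The number of reads behind a value is unknown. The sums over all genes were 502589 FPKM in control against 500488 FPKM in FZR1 ko. Over 244 short RNA genes, the most common ratio between libraries, held by 46, gave FZR1 ko a depth of 1.02 relative to control. FZR1 had 12.3 FPKM in control against 10.1 FPKM in FZR1 ko, for a log2 ratio of -0.26, and its mRNA level does not show which library is the knockout. Of 7 luminal markers, 4 were below 1 FPKM in both libraries (ESR1, PGR, GATA3 and CDH1), and the list summed to 1388 FPKM in control against 1744 FPKM in FZR1 ko, nearly all from KRT8 and KRT18. Of 4 mesenchymal or basal markers, KRT5 and KRT14 were below 1 FPKM in both libraries, and the list summed to 318 and 310 FPKM, nearly all from VIM (315 and 295 FPKM). CDH2 differed between the libraries, with 2.97 FPKM in control against 15.3 FPKM in FZR1 ko (log2 ratio 2.04). In both libraries the near absence of ESR1, PGR, GATA3 and CDH1 and the high VIM go against the luminal label, while KRT8, KRT18, FOXA1 (5.07 and 4.65 FPKM) and the low KRT5 and KRT14 do not. The part of these markers in the results was not tested.

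Most zinc finger proteins of chromosome 19 carry a KRAB domain near their start. As background, the A-box of this domain binds the corepressor TRIM28 (KAP1), which brings the histone methyltransferase SETDB1 and heterochromatin proteins to the DNA that the fingers have bound. Much of that DNA is transposable elements, and the clusters grew by repeated gene duplication, so neighbours often resemble each other in sequence. A KRAB A-box was found in the protein of 207 of the 243 members, and 36 had none. The proteins held 1 to 36 zinc fingers, with a median of 12.

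The chromosome 19 zinc finger genes were mostly lower in FZR1 ko, and most of the falls were under 2-fold. Of the 243 members, 3 had no value in the table (ZNF98, ZNF726 and ZNF583) and 62 were below 1 FPKM in both libraries. The other 178 had at least 1 FPKM in at least 1 library. Changes are given for these as the log2 ratio of FPKM + 1, FZR1 ko over control, a scale that shrinks the change of low genes. Of the 178 genes, 135 (75.8%) had a lower value in FZR1 ko and 43 a higher one. Their median log2 ratio was -0.30, with an interquartile range from -0.60 to -0.026. With no filter on low values the median was -0.17, and with a pseudocount of 5 FPKM it was -0.15. The median level was 4.60 FPKM in control against 3.35 FPKM in FZR1 ko. Summed over the members, the level was 1099 FPKM in control against 823 FPKM in FZR1 ko, which was 0.219% and 0.164% of the sum over all genes.

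Large falls were few in all, and on this scale they were fewer among members of low level. At least 2-fold lower on this scale were 14 of the 178 members (7.87%), against 6.72% of all 13554 genes kept and 5.69% of the 11550 protein-coding ones. At a mean of 0.5 to 2 FPKM, 1 of 42 members (2.38%) passed the limit, against 6.76% of 1184 protein-coding genes not named ZNF, and at 2 to 5 FPKM 1 of 70 (1.43%), against 5.93% of 1737. Of 46 members at 5 to 10 FPKM, 9 (19.6%) did, against 5.24% of 1928 such genes, and of 20 at 10 to 40 FPKM, 3 did, against 5.79% of 4021. The 14 became 27 with a pseudocount of 0.1 FPKM, 1 with 5 FPKM, and 9 without members at least 80% identical to a neighbour. The share over all genes was not computed with those pseudocounts. With 0.1 FPKM, members at a mean under 2 FPKM such as ZNF69 (-1.87) and ZNF805 (-1.03) passed too. The difference between the bands therefore depends on the pseudocount. At least 2-fold higher were 2 members (1.12%), against 6.78% of all genes and 6.39% of protein-coding genes, a share below the background. Over all genes the median log2 ratio was -0.0048, and over protein-coding genes it was 0.030, with 48.0% of them lower.

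**Figure D1:**
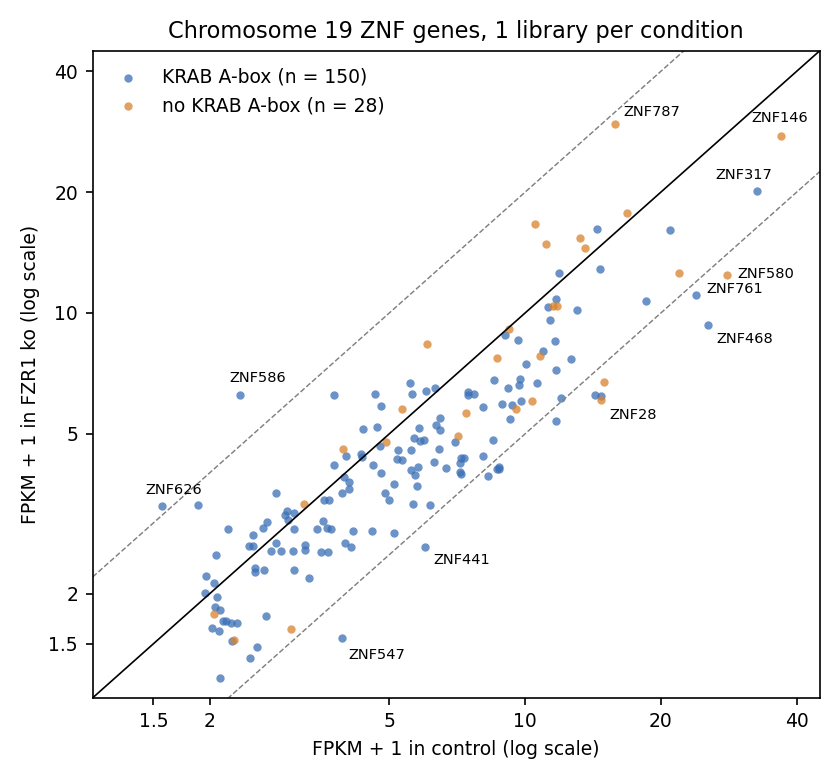
FPKM + 1 of the 178 chromosome 19 ZNF genes kept in control (x axis) and in FZR1 ko (y axis), both on log scales, with 1 library per condition and so no error bars. Each point is a gene, blue with a KRAB A-box and orange without, the solid line marks equal values and the dashed lines 2-fold differences. Of the points, 135 lie below the solid line, 14 on or beyond the lower dashed line and 2 on or beyond the upper one.

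Genes too low to be kept leaned the same way, though the share lower over all genes this low was not computed. Of the 62 members below 1 FPKM in both libraries, 35 were lower, 17 were higher and 10 were equal at the 2 decimals of the table. Among the equal ones, 8 were listed at 0 in both libraries, including ZNF536, a gene of the brain, and ZNF541, a gene of the testis. Of the kept genes, 156 had at least 1 FPKM in both libraries, 18 (10.1%) in control alone and 4 (2.25%) in FZR1 ko alone. Of all genes kept, 5.70% reached it in control alone and 5.16% in FZR1 ko alone, and of protein-coding genes 3.31% and 4.05%.

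The zinc finger genes elsewhere in the genome had a near median, and the other genes of chromosome 19 were nearly even. Of 197 ZNF genes kept on other chromosomes, 133 (67.5%) were lower and 64 higher, and the median log2 ratio was -0.28. The median of the chromosome 19 genes minus this one was -0.022. At least 2-fold lower were 17 of them (8.63%) and 2-fold higher 2 (1.02%), against 5.69% and 6.39% of protein-coding genes. The 27 ZNF genes kept on chromosome 16 had a median of -0.77, with 23 lower and 8 (29.6%) at least 2-fold lower, while the 25 on chromosome 7 had a median of -0.11. In contrast, of 722 other protein-coding genes kept on chromosome 19, 338 were lower and 384 were higher, with a median of 0.036. Zinc finger genes not named ZNF and a number count among these other genes. The 12 kept genes with a KRAB A-box that are not named ZNF had a median of -0.51, and 11 of them were lower.

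**Figure D2:**
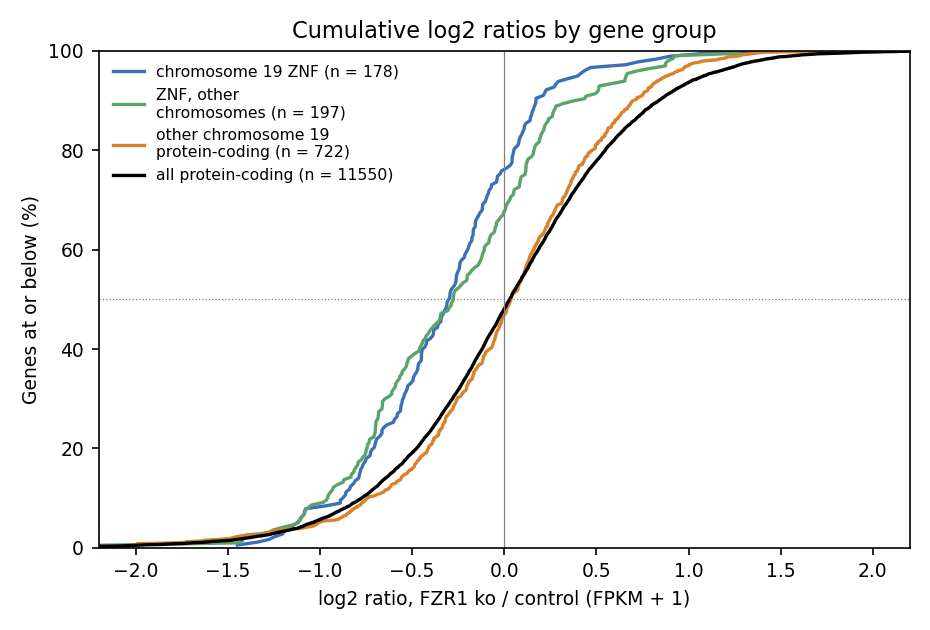
Cumulative share of genes (y axis, %) at or below each log2 ratio of FZR1 ko to control (x axis, log2 of FPKM + 1) for 4 gene groups, 1 library per condition. Around the medians, the curves of the chromosome 19 ZNF genes (178) and of the ZNF genes of other chromosomes (197) lie furthest left. Right of them lie the curves of other chromosome 19 genes (722) and of all protein-coding genes (11550). In this order the curves cross 50% at -0.30, -0.28, 0.036 and 0.030. In the lower tail the order differs, as the chromosome 19 ZNF curve starts at -1.45, to the right of the starts of the others.

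Zinc finger transcripts are low, and those with a KRAB domain are poor in G and C, so the members were set beside genes of like level and like composition. At a mean of 0.5 to 2 FPKM, 30 of 42 members were lower, against 45.8% of 1184 protein-coding genes not named ZNF. Between 2 and 5 FPKM, 51 of 70 were lower, against 38.1% of 1737 such genes. The largest shift was at 5 to 10 FPKM, where 42 of 46 members were lower, with a median of -0.52, against 39.2% of 1928 genes and a median of 0.17. Between 10 and 40 FPKM, 12 of 20 members were lower, with a median of -0.18, against 51.0% of 4021 genes. The members were lower more often than other genes in each of these 4 bands. The ZNF genes of other chromosomes were near the members at 0.5 to 2 FPKM, with medians of -0.19 and -0.20. At higher levels they differed, with medians of -0.020 at 2 to 5 FPKM (members -0.26), -0.27 at 5 to 10 FPKM (members -0.52) and -0.59 at 10 to 40 FPKM (members -0.18), where 49 of 61 were lower.

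By GC content of the transcript the median of the members was also below that of other genes in each band, though by little in the highest. At 33 to 40% GC, 41 of 49 members were lower, against 48.4% of 1806 other protein-coding genes, and at 40 to 45% GC, 61 of 80, against 44.8% of 2203. In the band from 60 to 75% GC, 9 of 18 members were lower and the median was 0.017, near that of 1902 other genes at 0.044, while the 31 ZNF genes of other chromosomes in this band had a median of -0.57, with 20 lower. All but 1 of these 18 members lack the KRAB A-box. Across the 178 members, which share the same pair of libraries, the log2 ratio had a Spearman correlation of 0.14 with GC, -0.16 with transcript length, -0.20 with mean FPKM and -0.093 with the number of fingers.

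**Figure D3:**
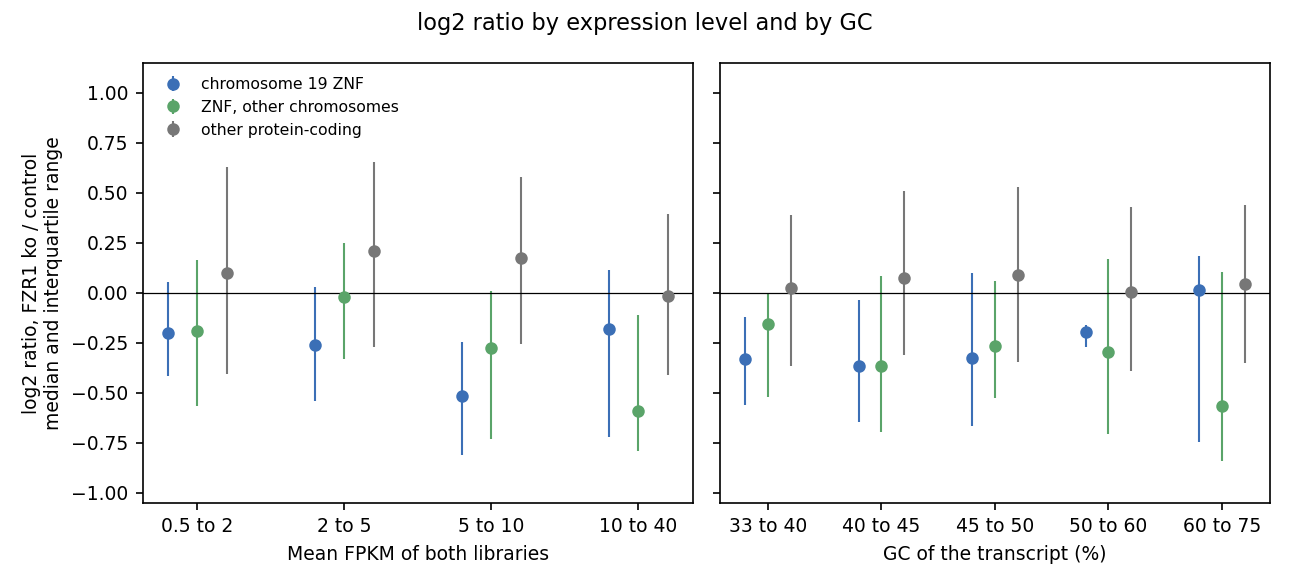
log2 ratio of FZR1 ko to control (y axis, FPKM + 1) in bands of mean FPKM (left) and of the GC content of the transcript in % (right). Points are medians over genes and bars span the interquartile range of the genes, not an error over replicates, for chromosome 19 ZNF genes (blue), ZNF genes of other chromosomes (green) and other protein-coding genes (grey). The blue medians are below the grey ones in every band, by most at 5 to 10 FPKM (-0.52 against 0.17) and by least at 60 to 75% GC (0.017 against 0.044).

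Genes with and without a KRAB A-box were both lower more often than higher. Of the 150 kept members with a KRAB A-box, 117 (78.0%) were lower, with a median of -0.31, and 11 were at least 2-fold lower and 2 at least 2-fold higher. Of the 28 without it, 18 were lower and 10 higher, with a median of -0.17, and 3 were at least 2-fold lower and 0 higher. The shares at least 2-fold lower were 7.33% with the A-box and 10.7% without it, against 6.72% of all genes, and the share at least 2-fold higher with it was 1.33%, against 6.78%. The 2 classes also differed in composition, with a median GC of 42.1% with the A-box and 62.4% without it, and in level, with medians of 4.06 and 9.44 FPKM in control.

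The members fell into 19 clusters when the chromosome was divided at gaps of over 500 kb between gene starts. Of these, 8 had at least 5 kept members, and they are named A to H here from the short arm end to the long arm end. They held 220 of the 243 members and 160 of the 178 kept. The median log2 ratio was below 0 in 7 of the 8 clusters. Zinc finger genes with other names count as other genes here. The 32 other protein-coding genes kept inside these clusters were nearly even, with 15 lower, 17 higher and a median of 0.054. Of these, 15 stood in clusters E and G (medians 0.33 and 0.21), while the 6 in cluster F had a median of -0.12 and the 4 in cluster H one of -0.42. The 18 kept members outside the 8 clusters had a median of -0.27. There were 11 runs of at least 5 kept neighbours in 1 direction, 10 lower and 1 higher. The 4 described with their clusters are the 3 longest and the higher one. The others were lower runs of 5 to 8 genes, with medians between -0.18 and -0.48. They went from ZNF266 to ZNF562, ZNF85 to ZNF429, ZNF724 to ZNF181 and ZNF146 to ZNF567. Further ones went from ZNF585B to ZNF571, ZNF224 to ZNF235 and ZNF8 to ZNF446. The run from ZNF724 to ZNF181 spans 3 clusters, from base 23221599 to base 34745378. Some skip genes below 1 FPKM or hold genes kept through control alone, such as ZNF85 (1.24 and 0.52 FPKM). With most members lower, lower runs can arise for that alone.

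Cluster F, in the distal long arm at chr19:51571283-53580269 of hg38, had the lowest median among kept genes. With no filter on low values its median was -0.34, and clusters B (-0.42) and A (-0.36) were lower. It held 39 members, 38 of them with a KRAB A-box, and 30 were kept. Of these, 28 were lower and 2 higher, the median was -0.56, and 6 were at least 2-fold lower, against 6.72% of all genes. The summed level was 238 FPKM in control against 137 FPKM in FZR1 ko. A run of 27 kept genes from ZNF350 to ZNF813 was lower, with a median of -0.58, and 2 of them reached 1 FPKM in control alone. The kept genes on either side of it were higher. ZNF613 had 1.19 FPKM in control against 1.89 FPKM in FZR1 ko, and ZNF331, an imprinted gene, had 10.9 and 11.6 FPKM.

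ZNF468 (Entrez gene 90333, chr19:52838010-52857619, minus strand) had the lowest log2 ratio of all members on this scale. With a pseudocount of 0.1 FPKM, other members, among them ZNF547 (-2.22), ZNF69 (-1.87) and ZNF441 (-1.58), were below it (-1.54). Of these, ZNF547 and ZNF69 reached 1 FPKM in control alone, with 0.55 and 0.23 FPKM in FZR1 ko. ZNF468 had 24.5 FPKM in control against 8.35 FPKM in FZR1 ko, for a log2 ratio of -1.45. Its neighbour ZNF28 had 13.7 and 5.21 FPKM, a log2 ratio of -1.24. Further along, ZNF525 had 13.3 and 5.23 FPKM (-1.20), ZNF845 had 10.7 and 4.39 FPKM (-1.12) and ZNF761 had 22.9 and 10.1 FPKM (-1.11). ZNF701 was just inside the 2-fold limit, at 7.27 and 2.92 FPKM (-1.08), and ZNF888, 11.04 and 5.14 FPKM, was the nearest outside it, at -0.97. All 6 genes past the limit encode KRAB proteins with 7 to 26 fingers.

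These 6 genes are close relatives. Their proteins were 68.7 to 91.2% identical in the 15 pairs, with a median of 75.3%, against a median of 54.6% in the other 420 pairs of kept members of the cluster, which reached 89.1% (ZNF611 and ZNF600). Such likeness is therefore not particular to the 6. ZNF28 and ZNF468 were 91.2% identical and ZNF845 and ZNF525 82.7%. Reads may be shared between such copies, so the split of the FPKM between them is uncertain, although both members of each pair were lower.

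The promoters of 5 of these 6 genes, those other than ZNF28, were also alike. Promoter sequences, from 250 bases before to 50 bases after the gene start, were taken from RefSeq (GRCh38.p14), where 214 of the 243 members had an entry. A group of 12 promoters of cluster F, linked by at least 70% identity, comprised ZNF808, ZNF701, ZNF83, ZNF611, ZNF468, ZNF320, ZNF816, ZNF845, ZNF525, ZNF765, ZNF761 and ZNF813. The 12 genes were all lower, with a median of -0.69 and 5 (41.7%) at least 2-fold lower, against 6.72% of all genes. The 13 other kept genes of the cluster with a promoter entry had a median of -0.29, with 11 lower and 0 at least 2-fold lower. The 5 promoters of the genes past the 2-fold limit are shown because they were 78.0 to 86.0% identical in pairs, against a median of 61.0% among the 25 kept members of the cluster with an entry and 59.3% among all member promoters. Over the whole group of 12 the median identity was 79.7%, so the likeness is not particular to the 5. It includes ZNF320 (-0.17) and ZNF816 (-0.31), which were nearer 0. Capitals mark the runs of at least 10 bases that all 5 share. They are written 5′ to 3′ on the strand of the gene, and their places are chr19:52570037-52570336 (ZNF701, plus), chr19:52857570-52857869 (ZNF468, minus), chr19:53333499-53333798 (ZNF845, plus), chr19:53365455-53365754 (ZNF525, plus) and chr19:53431734-53432033 (ZNF761, plus).
ZNF701: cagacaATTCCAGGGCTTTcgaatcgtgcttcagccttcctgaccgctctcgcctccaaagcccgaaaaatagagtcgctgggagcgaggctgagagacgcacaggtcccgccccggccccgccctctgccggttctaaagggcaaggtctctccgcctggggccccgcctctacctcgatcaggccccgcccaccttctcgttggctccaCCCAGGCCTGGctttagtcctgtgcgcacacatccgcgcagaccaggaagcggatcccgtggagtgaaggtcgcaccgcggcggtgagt
ZNF468: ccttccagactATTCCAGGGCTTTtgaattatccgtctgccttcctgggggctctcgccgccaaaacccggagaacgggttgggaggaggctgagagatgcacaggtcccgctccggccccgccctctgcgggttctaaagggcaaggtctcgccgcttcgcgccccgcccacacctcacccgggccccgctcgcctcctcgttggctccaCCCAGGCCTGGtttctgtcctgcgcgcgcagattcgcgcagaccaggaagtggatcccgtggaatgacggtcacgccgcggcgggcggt
ZNF845: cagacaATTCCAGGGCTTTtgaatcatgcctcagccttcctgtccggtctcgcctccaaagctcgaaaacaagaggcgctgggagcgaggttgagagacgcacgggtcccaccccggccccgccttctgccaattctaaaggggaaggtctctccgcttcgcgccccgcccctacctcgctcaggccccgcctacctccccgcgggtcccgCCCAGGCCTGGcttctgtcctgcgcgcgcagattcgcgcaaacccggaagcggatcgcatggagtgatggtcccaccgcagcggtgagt
ZNF525: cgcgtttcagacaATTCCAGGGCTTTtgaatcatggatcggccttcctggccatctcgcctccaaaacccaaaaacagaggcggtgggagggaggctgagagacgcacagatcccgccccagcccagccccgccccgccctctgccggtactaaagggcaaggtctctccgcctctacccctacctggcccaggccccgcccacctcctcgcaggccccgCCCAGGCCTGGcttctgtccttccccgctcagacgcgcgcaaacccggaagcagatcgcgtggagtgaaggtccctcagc
ZNF761: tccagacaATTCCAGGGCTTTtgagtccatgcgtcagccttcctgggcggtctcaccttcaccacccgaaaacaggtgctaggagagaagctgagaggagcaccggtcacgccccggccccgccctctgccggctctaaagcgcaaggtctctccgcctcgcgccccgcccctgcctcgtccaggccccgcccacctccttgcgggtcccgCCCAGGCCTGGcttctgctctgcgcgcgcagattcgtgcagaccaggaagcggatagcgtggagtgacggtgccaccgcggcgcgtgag

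The shared runs stand near the start of the window and toward its end, and GC content was 65.0 to 67.7% in the 5 sequences. A shared sequence is a description of related genes, and no part of it was tested as a regulatory site.

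There were 3 groups of related promoters in all. The largest had 26 members, nearly all in cluster C, the array beside the centromere on the short arm. Of its 16 kept genes, 14 were lower and 2 higher, with a median of -0.27. The third, of 7 promoters in cluster B (ZNF823, ZNF441, ZNF44, ZNF563, ZNF442, ZNF799 and ZNF443), had 5 lower and 2 higher, with log2 ratios from -1.20 to 0.29 and a median of -0.42. In cluster C, ZNF430, with 6.21 FPKM in control against 2.97 FPKM in FZR1 ko, had the lowest log2 ratio of the cluster (-0.86). ZNF626, with 0.57 FPKM in control against 2.30 FPKM in FZR1 ko, had the highest (1.07) and was just inside the 2-fold limit. It reached 1 FPKM in FZR1 ko alone, so it is lost where both libraries must reach it. Their promoters, 78.3% identical, are shown to set these opposite genes side by side, with capitals for runs of at least 10 bases found in both. ZNF430 is at chr19:21020407-21020706 on the plus strand and ZNF626 at chr19:20661522-20661821 on the minus strand.
ZNF430: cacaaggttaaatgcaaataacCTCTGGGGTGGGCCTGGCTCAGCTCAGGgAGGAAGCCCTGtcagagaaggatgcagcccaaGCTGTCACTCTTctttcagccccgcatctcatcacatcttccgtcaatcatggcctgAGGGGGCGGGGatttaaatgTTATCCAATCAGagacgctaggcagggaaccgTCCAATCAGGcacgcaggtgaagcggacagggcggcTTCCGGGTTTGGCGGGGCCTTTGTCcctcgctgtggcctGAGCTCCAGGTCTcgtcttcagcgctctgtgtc
ZNF626: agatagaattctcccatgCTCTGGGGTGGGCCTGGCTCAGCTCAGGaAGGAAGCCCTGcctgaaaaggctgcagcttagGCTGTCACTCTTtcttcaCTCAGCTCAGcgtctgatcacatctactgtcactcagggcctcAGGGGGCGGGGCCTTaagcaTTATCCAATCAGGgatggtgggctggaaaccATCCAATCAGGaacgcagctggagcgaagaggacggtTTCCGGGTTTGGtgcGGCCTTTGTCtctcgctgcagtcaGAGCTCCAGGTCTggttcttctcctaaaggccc

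In cluster C (chr19:19668153-24129968) 35 members stood in all, and 20 were kept, 17 lower and 3 higher, with a median of -0.26. The cluster holds known repressors of transposable elements. ZNF91, which silences SVA elements, had 3.77 FPKM in control against 3.65 FPKM in FZR1 ko, and ZNF93, which acts on LINE-1 elements, had 0.21 and 0.18 FPKM. ZNF93 was too low to be kept, and the log2 ratio of ZNF91 (-0.037) was above the cluster median. The gene with the highest mean level was ZNF101, with 17.5 and 9.74 FPKM, a log2 ratio of -0.79.

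In the short arm clusters nearer the tip the shift was larger. Cluster B (chr19:11483429-12633834) had 18 kept members, 15 lower and 3 higher, with a median of -0.51. It included a run of 9 lower genes from ZNF627 to ZNF136, counting kept genes only, of which 2 reached 1 FPKM in control alone. ZNF441 had 5 FPKM in control against 1.61 FPKM in FZR1 ko (-1.20), and its neighbour ZNF823 had 7.76 and 3.13 FPKM (-1.08). ZNF791, the highest gene of the cluster, had 11.7 and 6.68 FPKM (-0.72), and ZNF44 had the highest log2 ratio (0.29), with 3.80 and 4.88 FPKM.

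Cluster A (chr19:8509678-9786160) had 10 kept members, 8 lower and 2 higher, with a median of -0.44. ZNF121, which has no KRAB A-box, had 14.0 FPKM in control against 5.75 FPKM in FZR1 ko (-1.15). ZNF317, the second highest of all members in control, had 31.7 and 19.1 FPKM (-0.70). ZNF414, without a KRAB A-box, was higher, at 10.2 and 13.9 FPKM (0.42). The members nearest to FZR1 on either side were ZNF77, with 2.72 and 1.90 FPKM (-0.36), and ZNF557, with 6.19 and 3.02 FPKM (-0.84), both outside the 8 clusters.

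Clusters D and E, also on the long arm, had the medians nearest 0 among those below it. With no filter on low values cluster C was nearer, at -0.10, against -0.14 in D and -0.12 in E. Cluster D (chr19:36182060-37779586) had 18 kept members, 14 lower and 4 higher, with a median of -0.18 and 0 past the 2-fold limit in either direction, where 6.72% of all genes were lower and 6.78% higher. It holds ZNF146, a protein made almost wholly of fingers and the highest member by the mean of both libraries, with 35.9 FPKM in control against 26.6 FPKM in FZR1 ko (-0.42). ZNF383 had the lowest log2 ratio of this cluster (-0.55, 5.99 and 3.76 FPKM) and ZNF585A the highest (0.44, 3.64 and 5.29 FPKM). Cluster E (chr19:43530835-44500522) was nearly even, with 11 lower and 9 higher of 20 kept members, a median of -0.12 and 0 past the limit, against the same shares. ZNF222 was at its low end, with 6.31 and 3.35 FPKM (-0.75), and ZNF285 at its high end, with 1.06 and 1.5 FPKM (0.28). ZNF226, highest in it by the mean of both libraries, had 10.7 and 9.82 FPKM (-0.12).

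Cluster G (chr19:55476617-56671757) differed in kind. Of its 11 kept members 10 lack the KRAB A-box, and 5 were lower and 6 higher, with a median of 0.10. With no filter on low values the median was -0.014, so its sign rests on that filter. The summed level was 102 FPKM in control against 111 FPKM in FZR1 ko. A pair of neighbours went opposite ways in it. ZNF580 had 27.1 FPKM in control against 11.4 FPKM in FZR1 ko (-1.18), and ZNF581 had 9.53 and 15.6 FPKM (0.66). The exons of the pair overlap by 153 bases on the same strand (13.2% of the exon bases of ZNF580), so reads in that stretch cannot be assigned to 1 of them. ZNF787 had 14.9 and 28.5 FPKM (0.90) and was the nearest gene outside the 2-fold limit on the higher side. ZNF444 had 12.3 and 14.4 FPKM (0.21).

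Cluster H, the last before the long arm end (chr19:57191500-58489533), was the largest, with 43 members and 33 kept. Of these, 25 were lower and 8 higher, with a median of -0.45, 3 (9.09%) at least 2-fold lower and 1 (3.03%) at least 2-fold higher, against 6.72% and 6.78% of all genes. With no filter on low values the median of cluster H was -0.26, and with a pseudocount of 5 FPKM it was -0.20. Cluster H held the widest range of any cluster, from -1.34 to 1.43. ZNF547 had 2.93 FPKM in control against 0.55 FPKM in FZR1 ko (-1.34), and without the pseudocount it was 5.33-fold lower. It reached 1 FPKM in control alone, so that fold rests on a low value and the gene is lost where both libraries must reach it. ZNF749 had 7.74 and 3.08 FPKM (-1.10). ZNF446 had 7.65 and 3.08 FPKM (-1.08), and 45.3% of its exon bases overlap SLC27A5 on the opposite strand, from which reads cannot be told apart here, as strand is not stated. A run of 16 kept genes from ZNF71 to ZNF530, all lower with a median of -0.57, spans the border of clusters G and H. It skips ZNF772 (0.36 and 0.66 FPKM), which was higher and below 1 FPKM, and 4 of its genes reached 1 FPKM in control alone.

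In the middle of cluster H stood the single run of at least 5 kept genes on the higher side. It went from ZNF551 to ZNF587B, with a median of 0.72. It skips ZNF154 (0.61 and 0.46 FPKM) and ZNF671 (0.03 and 0.05 FPKM), which were below 1 FPKM, and ZNF551 was kept through FZR1 ko alone, so with at least 1 FPKM in both libraries the run has 4 genes. ZNF586 (Entrez gene 54807, chr19:57769676-57780616, plus strand) had 1.33 FPKM in control against 5.26 FPKM in FZR1 ko, for a log2 ratio of 1.43, the highest of all members on this scale. With a pseudocount of 5 FPKM it was 0.70, below ZNF787 at 0.76. ZNF551 had 0.88 and 2.33 FPKM (0.82), and ZNF587B had 2.77 and 5.23 FPKM (0.72). The other two were nearly level, ZNF776 with 3 and 3.41 FPKM (0.14) and ZNF552 with 5.03 and 5.40 FPKM (0.086). On both sides of the run the neighbours were lower. ZNF274, a protein known to bind the 3′ ends of zinc finger genes themselves, lies further along and had 4.62 and 5.27 FPKM (0.16), and ZNF544, the gene with the highest mean in the cluster, had 13.5 and 15.2 FPKM (0.16).

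The promoter of ZNF586 (chr19:57769426-57769725, plus strand) is shown as that of the member with the highest log2 ratio. It was 60.3% identical to that of ZNF468. Capitals mark a CCAAT box and a match to the ETS family motif CCGGAAG, on the opposite strand.
ZNF586: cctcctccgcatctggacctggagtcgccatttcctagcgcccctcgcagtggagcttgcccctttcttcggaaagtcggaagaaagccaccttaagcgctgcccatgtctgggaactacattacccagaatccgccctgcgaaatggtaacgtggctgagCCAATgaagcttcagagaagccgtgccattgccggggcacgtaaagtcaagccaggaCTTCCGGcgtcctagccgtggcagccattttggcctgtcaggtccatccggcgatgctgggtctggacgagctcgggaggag

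These 2 motifs were frequent in the members as a class. The letters CCGGAAG, on either strand, stood in 44.9% of the 214 member promoters, against 14.2% of 15843 promoters of protein-coding genes and 10.7% of all 27305. CCAAT stood in 53.3%, against 36.4% and 35.7%. TATAAA, the TATA box, was in 1.87% of member promoters, against 9.63% and 11.95%. The letters of YY1 (AAGATGGC) were found in 6.54% against 3.91% of protein-coding promoters, of NRF1 (GCATGCGC) in 4.21% against 4.26%, and of ZBTB33 (CTCGCGAGA) in 0.935% against 1.05%. None of the motif words contains another. Of the 13 promoters of members at least 2-fold lower that had an entry, 4 held CCGGAAG and 6 held CCAAT, against 65 and 76 of the 144 of members under 2-fold either way. Among the 13 are the 5 like promoters of cluster F shown above, which are not separate cases.

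Single genes outside the 8 clusters included ZNF296, without a KRAB A-box, with 13.7 FPKM in control against 5.07 FPKM in FZR1 ko (-1.28). ZNF574 had 21.0 and 11.6 FPKM (-0.81), ZNF302 had 19.95 and 15.1 FPKM (-0.38), and ZNF358 had 15.9 and 16.7 FPKM (0.073). Among the 10 members with the highest mean level, 7 were lower and 3 were higher.

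Neighbouring members resembled each other in their log2 ratios to a limited degree. Over the 133 neighbouring pairs with both genes kept, the Spearman correlation of their log2 ratios was 0.31, and 99 pairs had the same direction. With most members lower, many pairs share a direction for that alone. In the 14 pairs with at least 80% protein identity the correlation was 0.85 and 12 shared the direction, while in the 119 other pairs it was 0.24. The points share their libraries, and in near-identical pairs reads may be shared too. Among the exceptions, ZNF585A was higher (0.44) and ZNF585B lower (-0.21) at 94.5% identity, and ZNF799 and ZNF443 were at -0.070 and 0.051 at 93.0%.

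The genes of the partners through which KRAB proteins act were higher more often than lower. Of 18 corepressor genes, 6 were lower and 12 were higher, with a median of 0.23 against 0.030 over protein-coding genes. At least 2-fold lower were 0 and higher 1 (5.56%), near the 6.39% of protein-coding genes. TRIM28, the direct partner of the KRAB domain, whose gene lies just past ZNF446 at the long arm end, was lower, with 297 FPKM in control against 202 FPKM in FZR1 ko (-0.55). SETDB1, the H3K9 methyltransferase it recruits, was higher, with 11.8 and 16.4 FPKM (0.44), as was its partner ATF7IP, with 1.91 and 2.71 FPKM (0.35). Of the heterochromatin proteins, CBX5 had 32.97 and 23.3 FPKM (-0.48), CBX3 had 192 and 164 FPKM (-0.23) and CBX1 had 61.7 and 72.6 FPKM (0.23). The NuRD remodellers CHD3 and CHD4 had log2 ratios of 0.39 and 0.46.

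Of the HUSH complex, which spreads H3K9 methylation, and its partner MORC2, 2 genes were higher and 2 slightly lower. TASOR had 12.5 FPKM in control against 15.9 FPKM in FZR1 ko (0.32), PPHLN1 had 20.7 and 35.7 FPKM (0.76), MPHOSPH8 had 16.2 and 15 FPKM (-0.10) and MORC2 had 10.1 and 9.86 FPKM (-0.029). Among the other histone methyltransferases, EHMT1 had 2.37 and 9.74 FPKM (1.67), EHMT2 had 30.3 and 47.5 FPKM (0.63) and SUV39H1 had 36.0 and 27.1 FPKM (-0.39). The histone deacetylases HDAC1 and HDAC2 had log2 ratios of 0.22 and 0.16, and SMARCAD1, a remodeller that binds TRIM28, had 0.22.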

How the data were processed

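The authors sequenced total RNA on a BGISEQ-500, mapped the reads to hg38 transcripts (Bowtie2, RSEM) and deposited FPKM per Entrez gene ID to 2 decimals. The submitters' processing notes name Trimmomatic 0.36, HISAT2 2.1.0, Bowtie2 2.2.5 and RSEM. Annotation release and strandedness are not given in the sources used here. Of 24663 rows, 23033 had values, and 99.5% of these matched a RefSeq symbol (GRCh38.p14).

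Genes that reached 1 FPKM in either library were kept, and 1 FPKM was added before log2 ratios. Gene features came from GENCODE 44 canonical transcripts. A KRAB A-box was called where at least 15 of 40 usual residues matched within the first 250 of the protein, and the lowest member called had 19 and the highest not called 9. Protein and promoter identities came from global alignments (Biopython 1.88). Python 3.11.15, numpy 2.4.6, pandas 2.3.3 and scipy 1.17.1 were used, and the computation was tested on simulated data.

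Members and gene lists were chosen with earlier results of these data known. Named were members at least 2-fold different or nearest that limit, the 10 highest, those beside FZR1, the highest and most changed of each cluster, runs of at least 5 kept neighbours, pairs of at least 80% identity (some given only in counts), and the corepressors. Members without a value were also listed. Exceptions, named after values were seen, were ZNF91, ZNF93, ZNF154, ZNF274, ZNF320, ZNF331, ZNF444, ZNF536, ZNF541, ZNF581, ZNF671, ZNF772, ZNF776, ZNF816, and ZNF83, ZNF442, ZNF563 and ZNF808 of the promoter groups.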

Additional observations from a re-analysis of the deposited data

How the results depend on the processing

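No paired analysis was possible because there was 1 library per condition, and for the same reason none could be left out. The share of lower members stayed between 70.8 and 75.8%, and the median log2 ratio of the members stayed below 0 in every alternative that bears on it. It was -0.15 with a pseudocount of 5 FPKM and -0.17 with no filter on low values. The number of members at least 2-fold lower (14) was 27 with a pseudocount of 0.1 FPKM, 1 with 5 FPKM and 9 without the members at least 80% identical to a neighbour, and 0 were 4-fold lower. At least 2-fold higher were 0 with a pseudocount of 5 FPKM and 1 with at least 1 FPKM in both libraries, and 0 were 4-fold higher. The shares of all genes past these limits at the same settings were not computed. The small difference from the ZNF genes of other chromosomes (-0.022) was -0.069 and 0.0029, a reversal, with pseudocounts of 0.1 and 5 FPKM, -0.055 with no filter and -0.013 with at least 1 FPKM in both libraries. With no filter the median of cluster G was -0.014, and those of C, F and H were -0.10, -0.34 and -0.26. With a pseudocount of 5 FPKM the cluster medians lay between -0.33 (F) and 0.063 (G), and 7 of the 8 were more than 1.5 times nearer 0. Centring on the median of all genes and rescaling to the mean of the sums changed no direction or count. Divided at gaps of 1000 kb, 7 of 7 clusters had a median below 0. The alternatives for the neighbouring pairs and the corepressors were chosen after seeing the data, and the correlation of neighbours was 0.22 to 0.33 and the corepressor median 0.19 to 0.24 in them.

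With 1 library per condition, the spread between cultures or clones is unknown. FPKM holds no absolute depth, so the reads behind a value near 1 FPKM are unknown.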
